A study of Mus musculus with 6 samples.

Results

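Messenger RNA of 10 genes that coat, build or regulate lipid droplets was followed in pancreas of PARP2 KO and WT Ela-myc mice. The 10 genes were taken by symbol from the deposited count table, which lists 29721 genes: the perilipins Plin1, Plin2, Plin3, Plin4 and Plin5, the droplet fusion protein Cidec, and the droplet regulators and lipid carriers Fitm2, Abhd5, G0s2 and Fabp4. All 10 were found, and all 10 were among the 17652 genes that passed the filter on low counts. By where each is mainly expressed, 5 were treated as fat cell genes (Plin1, Plin4, Cidec, G0s2 and Fabp4), 4 as ubiquitous (Plin2, Plin3, Abhd5 and Fitm2) and 1 as a gene of oxidative tissue (Plin5).

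The study compared 3 PARP2 KO with 3 WT animals, all aged 3 months and all carrying the Ela-myc transgene, in which an elastase promoter drives Myc in acinar cells, the pancreatic cells that make digestive enzymes. WT therefore means an intact Parp2 gene in a tumour-prone pancreas and not a healthy pancreas. The tissue label reads pancreas, while the extraction protocol speaks of tumour samples, and no label says how much tumour or surrounding tissue a piece held. PARP2 is a nuclear enzyme that attaches ADP-ribose chains at DNA breaks, and its knockout was not limited to a cell type by any label.

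A lipid droplet is a core of triacylglycerol and cholesterol ester inside a single layer of phospholipid, and perilipins sit on that layer and decide which enzymes reach the core. In fat cells PLIN1 holds ABHD5 at the droplet surface, and on hormonal stimulation ABHD5 is released to activate the triacylglycerol lipase PNPLA2, which G0S2 inhibits. PLIN2 and PLIN3 coat the small droplets that most cell types can form, PLIN3 being drawn from the cytosol to nascent droplets. CIDEC fuses droplets into the single large one of white fat, FITM2 partitions new triacylglycerol into droplets at the endoplasmic reticulum, and FABP4 carries fatty acids through the cytosol. A healthy pancreas holds few fat cells, which lie between its lobules.

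Library totals lay between 28105021 and 32055565 counts. Levels are given in CPM, the counts of a gene per 1000000 counts of its library, after a factor had balanced composition between libraries. Parp2 itself read 12.4 to 14.4 CPM in PARP2 KO and 36.4 to 40.5 CPM in WT, so reads remained in the knockout. Digestive enzyme genes, which mark acinar tissue, took 4.98%, 16.4% and 0.0379% of counts in PARP2 KO replicates 1, 2 and 3, against 31.8%, 33.6% and 25.4% in WT replicates 1, 2 and 3. PARP2 KO replicate 3 thus stood apart: its 16 acinar markers summed to 107 CPM, against 21890.0 and 85585 CPM in the other PARP2 KO libraries and 145284 to 213280.0 CPM in WT. WT replicate 3 was the highest WT library for 8 of the 10 genes, and PARP2 KO replicate 2 was the lowest PARP2 KO library for 7 of 10. Xist and Y-linked transcripts marked PARP2 KO replicate 1 and WT replicates 1 and 2 as male and the other 3 libraries as female.

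Promoter windows set the starts of fat cell genes and ubiquitous genes side by side. RefSeq (GRCm38.p6) held a window, from 250 bases before to 50 bases after the start, for 9 of the 10 genes, with 11 windows in all. The windows of 2 fat cell genes and 2 ubiquitous genes are printed, 5′ to 3′ on the gene's strand. Capitals mark TTGCNNAA, a core of the site bound by C/EBP factors, and GGGCGG, the GC box, on either strand. The 2 fat cell windows printed are the only member windows with the C/EBP core. Those of Plin4 and G0s2 and the first of Cidec hold none and are not printed, so the printed set is no fair sample of the 2 classes. The windows lie at chr7:79732727-79733026 for Plin1, chr6:113434715-113435014 for the second start of Cidec, chr4:86670010-86670309 for Plin2 and chr17:56290462-56290761 for Plin3, all on the minus strand.
Plin1: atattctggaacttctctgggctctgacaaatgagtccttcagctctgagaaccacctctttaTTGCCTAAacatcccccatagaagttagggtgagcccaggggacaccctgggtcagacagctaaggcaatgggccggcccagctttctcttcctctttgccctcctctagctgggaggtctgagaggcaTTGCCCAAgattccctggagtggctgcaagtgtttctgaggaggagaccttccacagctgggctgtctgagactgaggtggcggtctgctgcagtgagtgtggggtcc
Cidec: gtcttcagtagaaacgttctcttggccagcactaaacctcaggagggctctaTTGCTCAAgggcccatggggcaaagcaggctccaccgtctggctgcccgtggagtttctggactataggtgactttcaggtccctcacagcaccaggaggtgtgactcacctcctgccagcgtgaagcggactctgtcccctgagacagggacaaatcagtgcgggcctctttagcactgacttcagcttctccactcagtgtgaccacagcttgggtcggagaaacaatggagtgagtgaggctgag
Plin2: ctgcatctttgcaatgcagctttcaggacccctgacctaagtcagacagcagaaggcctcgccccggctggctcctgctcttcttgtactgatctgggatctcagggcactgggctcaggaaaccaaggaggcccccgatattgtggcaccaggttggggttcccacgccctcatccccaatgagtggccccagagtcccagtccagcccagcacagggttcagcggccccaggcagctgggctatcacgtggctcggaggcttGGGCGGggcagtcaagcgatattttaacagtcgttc
Plin3: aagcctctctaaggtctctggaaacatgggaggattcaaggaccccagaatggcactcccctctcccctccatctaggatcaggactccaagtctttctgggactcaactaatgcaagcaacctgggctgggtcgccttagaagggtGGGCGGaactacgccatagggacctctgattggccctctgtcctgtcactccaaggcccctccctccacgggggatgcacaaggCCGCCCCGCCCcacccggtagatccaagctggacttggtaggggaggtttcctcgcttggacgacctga

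The C/EBP core occurred in 2 of the 9 genes with a window, both of them fat cell genes: at positions -187 and -58 of Plin1, and at -198 of the second Cidec window, counting from the start base as 0. It occurs in 10.8% of all 32851 RefSeq windows of this length. The GC box occurred in 6 of the 9, against 35.7% of all windows. Members are counted per gene, with 2 windows each for Cidec and Plin5, while the percentages count single windows, so the 2 are not in like units. Those 6 were the 4 ubiquitous genes together with G0s2 and Plin5. Plin3 held it 3 times, and 2 of those copies overlap by 1 base, as the longest run of capitals in its window shows. The Plin1 window held 2 CpG pairs, the Cidec windows 6 and 7, Plin4 7, Plin3 9, Plin2 10, G0s2 13, Fitm2 16, each Plin5 window 16 and Abhd5 32, and the median of all windows was 7. CACGTG, an E-box, stood at position -4 of Plin2 and in 7.15% of all windows. CCAAT was found in Plin2, Plin3, Plin4 and Plin5 and in 37.4% of all windows. No member window held TATAAA, present in 13.6% of all windows, or the DR1 element that PPARG binds with its partner RXR (searched with 1 letter of each half-site free), present in 0.381%. These matches describe letters in the windows and were not tested for binding.

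Of the 10 genes, 9 were higher and 1 was lower in PARP2 KO than in WT at an adjusted p under 0.05, in a quasi-likelihood test of edgeR over all 17652 tested genes. Over those genes, 28% were called higher and 25% lower, so a call was common. The fat cell genes carried the larger differences, with log2 fold changes of 2.34 to 3.73, their median being 3.61. The ubiquitous genes spanned -0.61 to 1.27, with a median of 0.91, and the median of all tested genes was 0.02. All 5 fat cell genes lay at or above the 95.2 percentile of log2 fold changes over all tested genes, while Plin2, Abhd5 and Fitm2 lay between the 79.8 and 86.9 percentiles. The 3 PARP2 KO and 3 WT values did not overlap for any of the 10 genes, with 9 higher and 1 lower, which was also true of 34.4% of all tested genes in the higher and 33.7% in the lower direction. In bulk tissue RNA, a change in the number of cells of a type and a change in RNA per cell cannot be told apart.

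**Figure D1:**
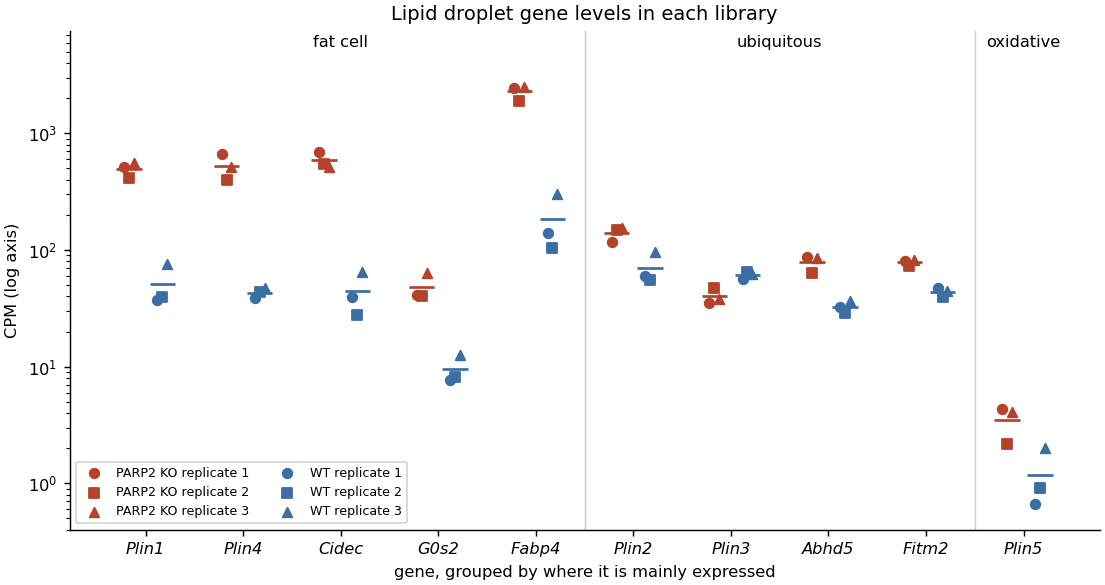
Level of each of the 10 genes in each library, in CPM on a log axis, with PARP2 KO to the left of WT. Each symbol is 1 library and each bar the mean of 3. The red and blue symbols of a gene do not overlap, and Plin3 is the gene with PARP2 KO below WT.

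Plin1 (ENSMUSG00000030546), the perilipin that gates fat release in fat cells, lies on the minus strand at chr7:79720218-79732903 (GRCm38). It read 515, 413 and 556 CPM in PARP2 KO replicates 1, 2 and 3, against 37.3, 39.4 and 76.4 CPM in WT replicates 1, 2 and 3. The lowest PARP2 KO library was thus several times the highest WT library. The means were 495 ± 73.6 CPM in PARP2 KO and 51.0 ± 22.0 CPM in WT (SD, n = 3 each), which gave a log2 fold change of 3.28 with an SE of 0.331 (adjusted p = 0.00213 in edgeR). WT replicate 3 stood 1.99-fold above the mean of the other two WT libraries, and without it the log2 fold change was 3.68.

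Plin4 (ENSMUSG00000002831), a perilipin of fat and muscle that coats small nascent droplets, lies at chr17:56100591-56109803. It read 665, 397.8 and 518 CPM in PARP2 KO replicates 1, 2 and 3, against 38.7, 43.5 and 47.2 CPM in WT replicates 1, 2 and 3. The WT libraries lay close together and the PARP2 KO libraries were spread, replicate 2 being the lowest. On the log2 scale the difference was 3.61 with an SE of 0.219 (adjusted p = 0.00201 in edgeR), a 12.2-fold difference in fitted level. The end of Plin4 overlaps exon sequence of Hdgfl2 on the opposite strand by 17 bases. Hdgfl2 averaged 40.7 ± 3.58 CPM in PARP2 KO and 47.5 ± 2.13 CPM in WT (SD, n = 3 each) and was not called.

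Cidec (ENSMUSG00000030278), at chr6:113424634-113435760, had the largest log2 fold change of the 10 genes. Its levels were 694, 549.6 and 518 CPM in PARP2 KO replicates 1, 2 and 3, against 39.2, 27.7 and 65.4 CPM in WT replicates 1, 2 and 3. Each PARP2 KO library was above every WT library. The genotypes differed by 3.73 on the log2 scale, with an SE of 0.356 (adjusted p = 0.00204 in edgeR). Its relative Cidea, the family member of brown fat, was at low levels, with 3.38, 0.536 and 2.11 CPM in PARP2 KO replicates 1, 2 and 3 and 0.391, 0.559 and 1.21 CPM in WT replicates 1, 2 and 3. Those groups overlapped and Cidea was not called (edgeR adjusted p = 0.134), but it was called when PARP2 KO replicate 2 was left out (edgeR adjusted p = 0.0271).

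Fabp4 (ENSMUSG00000062515), at chr3:10204088-10208576, was the most abundant of the 10 per length of transcript in every library. It read 2463, 1912 and 2519 CPM in PARP2 KO replicates 1, 2 and 3, against 141, 104 and 303 CPM in WT replicates 1, 2 and 3. WT replicate 3 was 2.47-fold above the mean of the other two WT libraries. On the log2 scale the difference was 3.65 with an SE of 0.450 (adjusted p = 0.00266 in edgeR), and 4.22 without WT replicate 3. Fabp5, the fatty acid carrier of skin and macrophages that is close to FABP4 in structure, fell to 30.7 ± 1.44 CPM in PARP2 KO, against 60.9 ± 6.28 CPM in WT (SD, n = 3 each), with a log2 fold change of -0.99 and an SE of 0.101 (adjusted p = 0.00211 in edgeR). The log2 ratio of Fabp4 to Fabp5 was 6.36, 5.95 and 6.26 in PARP2 KO replicates 1, 2 and 3, against 1.27, 0.61 and 2.42 in WT replicates 1, 2 and 3. Its difference of 4.76 had an exact permutation p of 0.1, the smallest that 3 against 3 libraries allow, and 0.167 after Benjamini-Hochberg adjustment over the 20 ratios computed.

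G0s2 (ENSMUSG00000009633), the inhibitor of the lipase PNPLA2, lies at chr1:193272161-193273217 within the gene body of Lamb3 on the opposite strand, sharing no exon base with it. It read 41.0, 40.0 and 63.0 CPM in PARP2 KO replicates 1, 2 and 3, against 7.67, 8.12 and 12.7 CPM in WT replicates 1, 2 and 3. Both groups held a high library, replicate 3 in each. The log2 fold change of 2.34 with an SE of 0.278 (adjusted p = 0.00257 in edgeR) was the smallest of the 5 fat cell genes. Lamb3, a basement membrane laminin of epithelia, had a log2 fold change of -1.02 and was not called.

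**Figure D2:**
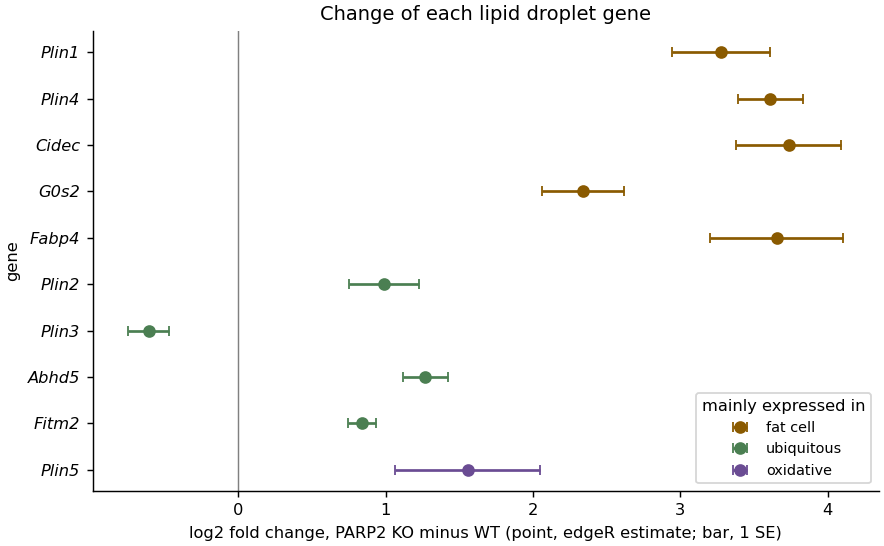
Log2 fold change of each gene, PARP2 KO minus WT, from edgeR, with 1 SE as the bar and colour for where the gene is mainly expressed. The 5 fat cell genes lie between 2.34 and 3.73, and Plin3 alone lies below 0.

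The ubiquitous genes had smaller log2 fold changes, and not all in one direction. Plin2 (ENSMUSG00000028494, chr4:86648386-86670060), the coat protein of droplets in most tissues, read 117, 149 and 154 CPM in PARP2 KO replicates 1, 2 and 3, against 60.1, 55.8 and 96.4 CPM in WT replicates 1, 2 and 3. The gap between WT replicate 3 and PARP2 KO replicate 1 was small beside that of the fat cell genes. The genotypes differed by 0.99 on the log2 scale, with an SE of 0.236 (adjusted p = 0.0156 in edgeR), and the call was lost without WT replicate 1 (0.88, edgeR adjusted p = 0.0533).

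Plin3 (ENSMUSG00000024197, chr17:56277476-56292873), the perilipin that moves from the cytosol to nascent droplets, was the single gene that fell. Its levels were 34.9, 47.6 and 38.4 CPM in PARP2 KO replicates 1, 2 and 3, against 56.2, 65.2 and 62.9 CPM in WT replicates 1, 2 and 3. Every PARP2 KO library was below every WT library, and replicate 2 was the highest of both groups. On the log2 scale the difference was -0.61 with an SE of 0.136 (adjusted p = 0.0119 in edgeR). Scaling by library totals alone, which raised the median log2 fold change of all tested genes by 0.40, left Plin3 at -0.22 and not called (edgeR adjusted p = 0.206). Leaving out PARP2 KO replicate 1 gave -0.50 and also ended the call (edgeR adjusted p = 0.0533).

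Abhd5 (ENSMUSG00000032540, chr9:122351608-122381524), the activator of PNPLA2, read 87.4, 63.7 and 84.8 CPM in PARP2 KO replicates 1, 2 and 3, against 32.4, 29.0 and 36.4 CPM in WT replicates 1, 2 and 3. The genotypes were well apart, with PARP2 KO replicate 2 the lowest of its group. The genotypes differed by 1.27 on the log2 scale, with an SE of 0.153 (adjusted p = 0.00253 in edgeR). Fitm2 (ENSMUSG00000048486, chr2:163466379-163472629), which acts where droplets bud from the endoplasmic reticulum, read 80.5, 72.6 and 81.6 CPM in PARP2 KO replicates 1, 2 and 3, against 47.2, 39.8 and 44.2 CPM in WT replicates 1, 2 and 3. Its libraries lay close together within each genotype, and it had a log2 fold change of 0.84 with an SE of 0.0960 (adjusted p = 0.00231 in edgeR). An antisense gene overlaps each of the pair, A730085K08Rik for Abhd5 and 2310001K24Rik for Fitm2. Neither had more than 5 counts in a library, and the strand setting of the counting is not given in the sources used here.

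Plin5 (ENSMUSG00000011305, chr17:56111601-56117596), which ties droplets to mitochondria in heart, muscle and liver, was the least abundant of the 10 per length of transcript in every library. It read 4.33, 2.18 and 4.06 CPM in PARP2 KO replicates 1, 2 and 3, from 160, 69 and 158 counts, against 0.665, 0.903 and 1.998 CPM in WT replicates 1, 2 and 3, from 17, 21 and 58 counts. PARP2 KO replicate 2 and WT replicate 3 nearly met. On the log2 scale the difference was 1.56 with an SE of 0.491 (adjusted p = 0.0369 in edgeR). Leaving out PARP2 KO replicate 1 or 3, or WT replicate 1 or 2, ended the call, with edgeR adjusted p-values of 0.117, 0.0870, 0.0932 and 0.108. A term for sex also ended it (edgeR adjusted p = 0.0609).

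Within each sex the values are a description. The male comparison rests on 1 PARP2 KO and 2 WT libraries and the female comparison on 2 PARP2 KO and 1 WT library, and neither was tested. The groups did not overlap over all 6 libraries, so the direction within each sex was already fixed. Plin1 differed by 3.75 in males and 2.65 in females on the log2 CPM scale, and Cidec by 4.40 and 3.03. Plin2 differed by 1.02 in males and 0.66 in females, and Plin3 by -0.79 in males and -0.56 in females. The difference between the sexes was not tested. Without PARP2 KO replicate 3, whose acinar markers were lowest, 8 of the 10 genes were called higher and 1 lower, beside 23.5% and 20.4% of all genes tested then. Without WT replicate 3, 9 were called higher and 1 lower, beside 23.5% and 20.3%.

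Per kilobase of transcript, the order of the genes differed between genotypes. In PARP2 KO the levels in CPM per kb were 2564 ± 375 for Fabp4, 343 ± 54.7 for Cidec, 212 ± 31.6 for Plin1 and 91.6 ± 23.2 for Plin4 (SD, n = 3). They were followed there by 74.4 ± 10.6 for Plin2, 55.1 ± 14.9 for G0s2, 24.9 ± 4.11 for Abhd5, 19.7 ± 1.23 for Fitm2, 11.1 ± 1.81 for Plin3 and 1.77 ± 0.590 for Plin5. The neighbours Plin4, Plin2 and G0s2 lay within their spread of each other, as did Abhd5 and Fitm2. Within each PARP2 KO library, however, G0s2 held rank 6, Abhd5 rank 7 and Fitm2 rank 8, while Plin4 and Plin2 changed places in replicate 2. In WT, Fabp4 was again first at 204 ± 118 CPM per kb, but Plin2 was second at 37.5 ± 11.8, ahead of Cidec at 25.8 ± 11.3, Plin1 at 21.9 ± 9.45 and Plin3 at 16.9 ± 1.29. The WT order ended with Fitm2 at 11.0 ± 0.932, G0s2 at 10.9 ± 3.18, Abhd5 at 10.3 ± 1.18, Plin4 at 7.49 ± 0.733 and Plin5 at 0.598 ± 0.358 CPM per kb (SD, n = 3). In WT, Plin2, Cidec and Plin1 lay within their spread of each other, as did Cidec, Plin1 and Plin3, and also Fitm2, G0s2 and Abhd5. Plin2 held rank 2 in each WT library, while the ranks of Cidec, Plin3, Fitm2, G0s2 and Abhd5 varied between WT libraries. Plin3 held rank 9 of the 10 genes in each PARP2 KO library and ranks 5, 3 and 5 in WT replicates 1, 2 and 3. Plin4 held ranks 4, 5 and 4 in PARP2 KO replicates 1, 2 and 3 and rank 9 in each WT library. These orders depend on the transcript length assigned to each gene, here that of principal transcripts. For Plin2 it was 1888 bases, against 3512 for the union of all exons. The same 2 lengths were 2329 and 4649 bases for Plin1, 896 and 4489 for Fabp4, and 1711.5 and 1856 for Cidec. Ranks with union lengths are not given.

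Among the perilipins, the make-up of the transcripts differed between genotypes. The 5 perilipins summed to 410.4, 339.9 and 423 CPM per kb in PARP2 KO replicates 1, 2 and 3, against 70.3, 72.4 and 110.3 CPM per kb in WT replicates 1, 2 and 3. Plin1 and Plin4 together made 82.0%, 72.5% and 77.7% of that sum in PARP2 KO replicates 1, 2 and 3, against 32.3%, 33.8% and 37.2% in WT replicates 1, 2 and 3. The fat cell pair was thus the majority in each PARP2 KO library and the minority in each WT library. Plin3 made 2.89% ± 0.833 of the sum in PARP2 KO and 20.8% ± 4.66 in WT (SD, n = 3 each). Plin2 made 19.2% ± 4.07 in PARP2 KO and 44.1% ± 2.91 in WT (SD, n = 3 each). The Plin5 share, at 0.445% ± 0.109 in PARP2 KO and 0.672% ± 0.221 in WT (SD, n = 3 each), overlapped between genotypes. The shares were not tested. They depend on the transcript length assigned to each gene: with the union of all exons, a choice made after seeing the data, Plin1 and Plin4 together made 78.7% in PARP2 KO and 33.0% in WT.

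**Figure D3:**
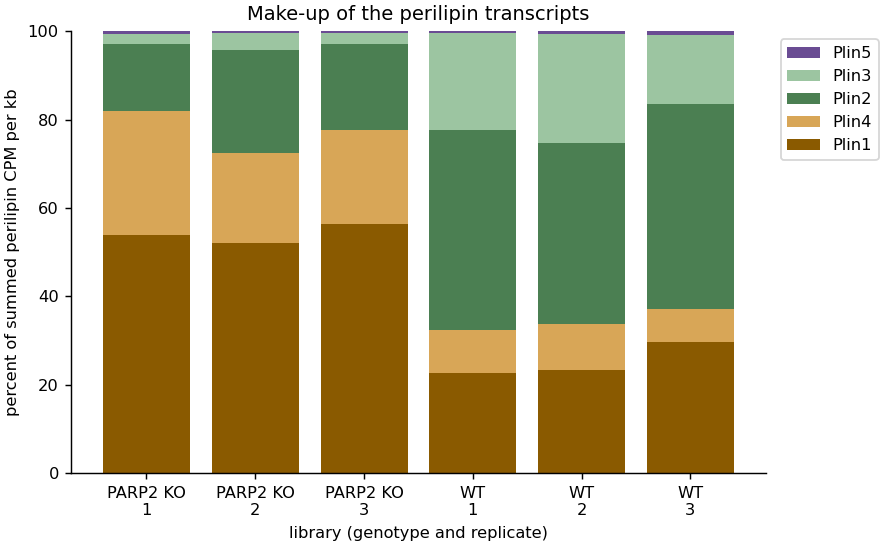
Share of each perilipin in the summed perilipin level of each library, in percent of CPM per kb. The brown parts, Plin1 and Plin4, fill 72.5% to 82.0% of the PARP2 KO bars and 32.3% to 37.2% of the WT bars.

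Ratios of 2 genes within a library ask whether their changes differed, and apart from the 0.5 CPM added to each gene they do not depend on the scaling between libraries. They use CPM without correction for length, so the difference between genotypes is read and not the level of the ratio. The log2 ratio of Plin1 to Plin2 was 2.13, 1.46 and 1.85 in PARP2 KO replicates 1, 2 and 3, against -0.68, -0.50 and -0.33 in WT replicates 1, 2 and 3. Every PARP2 KO ratio was above every WT ratio, and the means differed by 2.32, or 4.98-fold (exact permutation p = 0.1, adjusted 0.167). The difference was 3.94 for Plin1 to Plin3 and 4.18 for Plin4 to Plin3, without overlap between genotypes and with the same exact p of 0.1. For Plin4 to Plin1, the fat cell pair itself, it was 0.24, with overlapping groups (exact permutation p = 0.6). For Plin5 to Plin2 it was 0.27, also with overlapping groups (exact permutation p = 0.5). No ratio could reach an exact p below 0.1 in this design.

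Fat release is switched on by Abhd5 and off by G0s2, both acting on PNPLA2. Pnpla2, the triacylglycerol lipase, averaged 545 ± 29.0 CPM in PARP2 KO and 95.2 ± 26.1 CPM in WT (SD, n = 3 each), which gave a log2 fold change of 2.52 with an SE of 0.207 (adjusted p = 0.00201 in edgeR). The log2 ratio of its activator Abhd5 to Pnpla2 was -2.70, -3.00 and -2.70 in PARP2 KO replicates 1, 2 and 3, against -1.35, -1.40 and -1.77 in WT replicates 1, 2 and 3. The ratio was lower in each PARP2 KO library than in any WT library, with a difference of -1.30 (exact permutation p = 0.1, adjusted 0.167). The ratio of the inhibitor G0s2 to Pnpla2 differed by -0.26 and overlapped between genotypes (exact permutation p = 0.4). The ratio of G0s2 to Abhd5 differed by 1.03, without overlap (exact permutation p = 0.1, adjusted 0.167). The ratio of Abhd5 to the fat cell gene Adipoq differed by -2.17. These are ratios of bulk RNA, in which a shift in cell make-up and a change within cells cannot be told apart. Fitm2 and Bscl2, the seipin gene that shapes new droplets at the endoplasmic reticulum, had a ratio that differed by -0.16 with overlapping groups (exact permutation p = 0.4).

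Among 28 tested genes of other droplet proteins and lipid enzymes, 12 were called higher and 5 lower, their median being 0.34 on the log2 scale. With library totals as the scaling, 16 were called higher and 2 lower. That scaling called 7475 of all tested genes higher and 2160 lower, against 4938 and 4415 with the main scaling. Lipe, the hormone-sensitive lipase, averaged 416 ± 74.0 CPM in PARP2 KO and 53.8 ± 27.4 CPM in WT (SD, n = 3 each), which gave a log2 fold change of 2.95 with an SE of 0.384 (adjusted p = 0.00311 in edgeR). Mgll, which completes the breakdown of triacylglycerol, rose by 1.70 on the log2 scale, and the ubiquinone reductase gene Aifm2 and the caveolar protein gene Cav1 rose by 2.22 and 2.03. Dgat2, which makes triacylglycerol, rose by 2.67 (edgeR adjusted p = 0.0432), but that call was lost in each of the 6 fits without 1 library except the one without WT replicate 3. The genes that fell included Spg20, which encodes spartin, at -1.20, and Aup1, a droplet protein of most cells, at -0.71. Hilpda, an inhibitor of PNPLA2 outside fat, was at -0.61 (edgeR adjusted p = 0.0128), and its call was lost without PARP2 KO replicate 1 (edgeR adjusted p = 0.0521) and with library totals as the scaling (edgeR adjusted p = 0.266).

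Of 18 tested genes of PPARG and its fat targets, 12 were called higher and 2 lower, with a median log2 fold change of 1.84. The 2 called lower were Fabp5, at -0.99 as given above, and Gk at -0.41 (edgeR adjusted p = 0.0422). With library totals as the scaling, 12 were called higher and 1 lower. Pparg is also counted among the fat cell markers below. Pparg, the nuclear receptor that drives fat cell formation and binds at several perilipin genes, had a log2 fold change of 2.13 with an SE of 0.220 (adjusted p = 0.00213 in edgeR). Cebpa, its partner in fat cell formation, averaged 201 ± 15.6 CPM in PARP2 KO and 79.8 ± 13.6 CPM in WT (SD, n = 3 each), with a log2 fold change of 1.33 and an SE of 0.141 (adjusted p = 0.00213 in edgeR). The lists hold genes chosen with earlier results of these libraries known, and their counts are a description.

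Fat cell markers moved with the fat cell genes. Of 16 such markers, 15 were called higher and none lower, their median log2 fold change being 3.03, and the exception was Thrsp (2.38, edgeR adjusted p = 0.131). The count called higher was 16 without WT replicate 3 and 13 without any other single library. It was also 13 with no count filter. Their summed level was 12198 to 16370.4 CPM in PARP2 KO and 1269 to 2775 CPM in WT. Adipoq, the fat cell hormone adiponectin, read 860.2, 846 and 999 CPM in PARP2 KO replicates 1, 2 and 3, against 62.1, 59.7 and 158 CPM in WT replicates 1, 2 and 3. Like most of the 10 genes, it was highest in replicate 3 of the WT libraries. It differed by 3.27 on the log2 scale, with an SE of 0.436 (adjusted p = 0.00321 in edgeR), beside the median of 3.61 over the fat cell droplet genes.

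Set against Adipoq within each library, 4 of the fat cell genes had overlapping ratios in the genotypes and the other 6 genes had not. The log2 ratio of Plin1 to Adipoq was -0.74, -1.03 and -0.84 in PARP2 KO replicates 1, 2 and 3, against -0.73, -0.59 and -1.04 in WT replicates 1, 2 and 3. The groups overlapped and differed by -0.08 (exact permutation p = 0.6). The differences for Plin4, Fabp4 and Cidec were 0.15, 0.37 and 0.38, each with overlapping groups (exact permutation p of 0.8, 0.2 and 0.2). For these 4 genes a change relative to Adipoq was not detectable with 3 libraries a group. The ratio of G0s2, the remaining fat cell gene, differed by -1.14 without overlap (exact permutation p = 0.1, adjusted 0.167). The ratios of Abhd5, Plin2, Fitm2 and Plin3 to Adipoq differed by -2.17, -2.40, -2.59 and -4.03, and that of Plin5 by -2.13, all without overlap (exact permutation p = 0.1 each, adjusted 0.167).

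**Figure D4:**
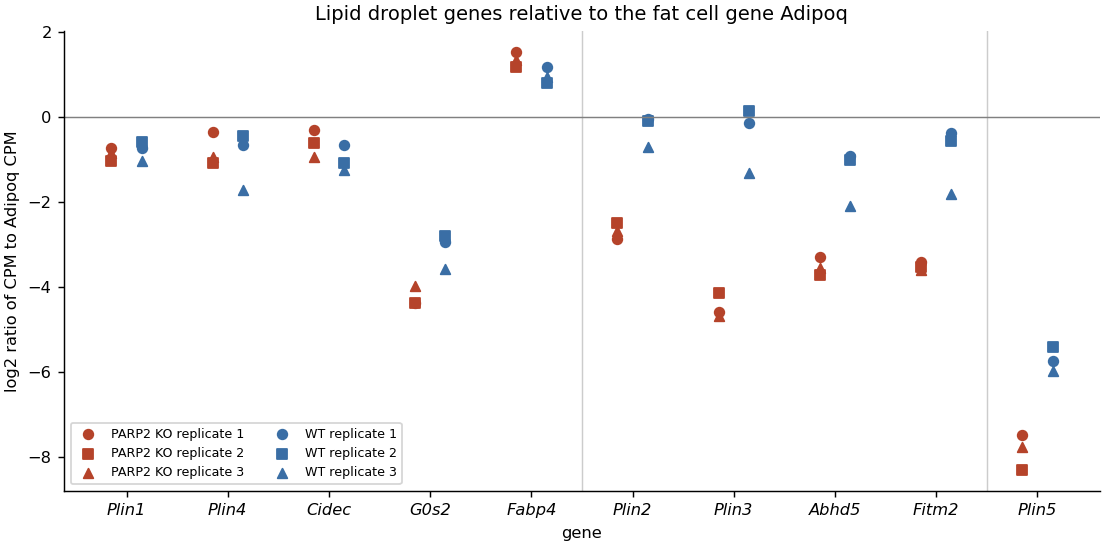
Log2 ratio of each gene's CPM to that of Adipoq in each library, after 0.5 CPM was added to both, with PARP2 KO left of WT. Plin1, Plin4, Cidec and Fabp4 overlap between genotypes, and the other 6 genes have every PARP2 KO library below every WT library.

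Markers of cells that also express members of the group were read beside them. Capillary endothelium expresses Fabp4, and 13 of its 14 markers were called higher and none lower, with a median log2 fold change of 1.47. Their sum was 1023 to 1175 CPM in PARP2 KO and 389.6 to 446 CPM in WT. Meox2, Robo4, Egfl7 and Kdr had log2 fold changes of 1.82, 1.22, 1.04 and 1.38, within a range of 0.19 to 2.77 over the 14. Macrophages can express Plin2 and Fabp4, and of 12 macrophage markers 2 were called higher and 4 lower, with a median of -0.18. Their sum was 3051 to 4068 CPM in PARP2 KO and 1715 to 1907 CPM in WT, much of it in PARP2 KO from Lpl, which fat cells also express. Csf1r was at 1.07, while Trem2 and Cd9, genes of lipid-laden macrophages, were at -2.16 and -1.16, and the call of Trem2 was lost without PARP2 KO replicate 1 (edgeR adjusted p = 0.0534). With library totals as the scaling, 3 macrophage markers were called higher and 2 lower, with a median of 0.20. The median of all tested genes was then 0.42. The part of either cell type in the result was not tested.

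Brown and beige fat markers were mixed, with 4 of 8 tested called higher and 2 lower, and a median log2 fold change of 1.25. Slc27a1, a fatty acid transporter that white fat also expresses, was at 1.54 and Lhx8 at 2.57. Cox7a1, a respiratory chain subunit of brown fat and muscle, was at -2.42. Cox8b was also called higher, at 2.81, and Dio2 lower, at -1.42 (edgeR adjusted p = 0.0263 and 0.0148). Lhx8 averaged only 2.39 ± 0.565 CPM in PARP2 KO and 0.401 ± 0.196 CPM in WT (SD, n = 3 each). Cox7a1 averaged 0.563 ± 0.225 CPM in PARP2 KO and 3.00 ± 1.23 CPM in WT (SD, n = 3 each). Ucp1, the defining gene of brown fat, read 0.135, 0.0631 and 0.0257 CPM in PARP2 KO replicates 1, 2 and 3, against 0, 0 and 0.0689 CPM in WT replicates 1, 2 and 3, at or near 0 in all libraries. Skeletal muscle, a site of Plin4 and Plin5, gave 2 of 5 tested markers higher and 1 lower, with sums of 5.30 to 7.73 CPM in PARP2 KO and 5.29 to 15.8 CPM in WT. Acta1, skeletal muscle actin, and Tnnt3, a fast troponin subunit, were the 2 called higher, at 2.86 and 1.34, and Ckm, muscle creatine kinase, was the one called lower, at -3.76. None was called higher without WT replicate 2, or when genes had to reach 1 CPM in 3 libraries, and none lower without any one PARP2 KO library, WT replicate 1 or WT replicate 3. Liver, a site of Plin2 and Plin5, gave 1 of 5 tested hepatocyte markers higher and none lower, with a median of -2.61. The one was Cyp2e1, which fat also expresses. Without PARP2 KO replicate 2, 1 marker was called higher and 5 lower, with a median of -4.70, and limma-voom called 1 higher and 3 lower. The hepatocyte sum was 363 to 1533 CPM in PARP2 KO and 150.4 to 179 CPM in WT. Cyp2e1 made most of the PARP2 KO sum, at 1523, 673 and 360 CPM in replicates 1, 2 and 3. It read 85.9, 52.4 and 40.2 CPM in WT replicates 1, 2 and 3. The 4 tested markers not called, Apob, Alb, Hnf4a and Ttr, had log2 fold changes of -2.98, -1.44, -2.65 and -2.61 over all 6 libraries. Hnf4a read 2.73, 14.3 and 0 CPM and Ttr 4.03, 21.4 and 0.0257 CPM in PARP2 KO replicates 1, 2 and 3. In WT replicates 1, 2 and 3, Hnf4a read 32.5, 41.7 and 32.4 CPM and Ttr 37.7, 60.5 and 56.5 CPM. Both ordered the PARP2 KO libraries as the digestive enzyme share did, and the cells they came from were not tested.

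Stellate cells, which store retinoid in droplets, gave 1 of 7 tested markers higher and 1 lower, with a median of 0.74. Their sum was 830.4 to 876 CPM in PARP2 KO and 1003 to 1162 CPM in WT. That sum includes Col1a1, the marker called lower at -1.21, with 286 ± 65.7 CPM in PARP2 KO and 664 ± 139 CPM in WT (SD, n = 3 each). Of the markers not called, Des, Acta2, Reln and Pdgfrb were at 1.13, 1.37, 0.74 and 0.12, and Rgs5 was at -0.12. With library totals as the scaling, or without WT replicate 3, 5 stellate markers were called higher and 1 lower. Library totals also called more of all tested genes higher, 7475 against 4938 with the main scaling. Lrat, the retinoid storage enzyme, was the marker called higher (3.79, edgeR adjusted p = 0.0310), and that call was lost without PARP2 KO replicate 1 (edgeR adjusted p = 0.0872) or WT replicate 1 (edgeR adjusted p = 0.105). All 10 lymphocyte markers were called higher, with a median of 2.73 and a sum of 1686 to 2840.1 CPM in PARP2 KO and 253 to 575 CPM in WT. Of 16 acinar markers, Nr5a2 was called lower and none higher. The count called lower was 0 without PARP2 KO replicate 1 or any one WT library, 4 without PARP2 KO replicate 2, 4 without PARP2 KO replicate 3, and 3 with DESeq2 or limma-voom. Their median was -2.31, with the spread between PARP2 KO libraries given above. The part of these cells in the levels of the droplet genes was not tested.

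The 5 genes whose pattern over the 6 libraries was most like that of Plin1 included Car3, Adipoq, Acaa1b and Trarg1. Likeness was the root mean square distance between log2 CPM values centred on each gene's own mean, over 12212 genes with a mean of at least 5 CPM, and it was 0.129 for Car3 and 0.188 for Trarg1. Car3, a carbonic anhydrase abundant in fat, read 6573, 4694 and 5915 CPM in PARP2 KO replicates 1, 2 and 3, against 399.8, 395 and 751 CPM in WT replicates 1, 2 and 3. It shares with Plin1 the dip in PARP2 KO replicate 2 and the peak in WT replicate 3. Among the other members, Fabp4 ranked 22, Plin4 27, Cidec 29 and G0s2 87 in likeness to Plin1. Abhd5 ranked 1060, Plin2 1355, Fitm2 1868 and Plin3 9431, while Plin5 was below the level ranked. The libraries share their tissue make-up and depth across genes, and the ranks are a description.

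Plin4, Plin5 and Plin3 lie on chromosome 17, Plin4 and Plin5 with a gap of 1797 bases between them and Plin3 159879 bases beyond Plin5. The neighbours did not share one direction. Plin4 at 3.61 and Plin5 at 1.56 were followed by Lrg1, a secreted glycoprotein, at 1.49 and Sema6b, a semaphorin, at 1.20, both called higher. On the other side of Plin4, Hdgfl2 and Ubxn6 were not called, though Ubxn6 was with library totals (0.45, edgeR adjusted p = 0.0221), and Chaf1a, a chromatin assembly subunit of dividing cells, was lower at -0.99. Beyond Sema6b, Tnfaip8l1 was called higher at 0.64 (edgeR adjusted p = 0.0466), a call lost when any of 4 libraries was left out, among them PARP2 KO replicate 1 (edgeR adjusted p = 0.0916). Before Plin3, Fem1a and Ticam1 were called lower at -0.32 and -0.35, but with library totals as the scaling they stood at 0.08 and 0.05 and were not called (edgeR adjusted p = 0.532 and 0.700). On the other side of Plin3, Uhrf1, which maintains DNA methylation in dividing cells, was lower at -0.90, and Kdm4b was higher at 0.42. Within 50000 bases of the 3 perilipins 2 further genes had too few counts to be tested.

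**Figure D5:**
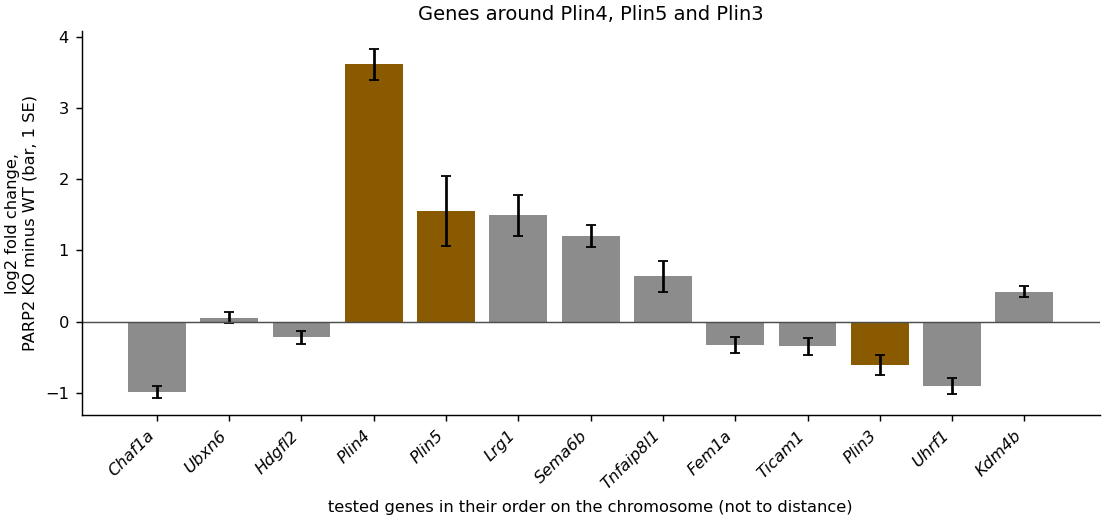
Log2 fold change, PARP2 KO minus WT, of the tested genes within 50000 bases of Plin4, Plin5 or Plin3, in chromosome order and not to distance, with 1 SE. Plin4 and Plin5 stand above 1 beside Lrg1 and Sema6b, and Plin3 stands below 0 between Ticam1 and Uhrf1.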

How the data were processed

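RNA of 6 pancreas samples was sequenced, 3 from PARP2 KO and 3 from WT mice, each from a separate animal per the series design text. The authors deposited raw read counts per gene, and log2 values that matched log2 of the counts over DESeq2 size factors plus 1 within 5.2e-14. The deposited counts entered every result. The submitters' processing notes name the build GRCm38 (mm10) and the tools STAR 2.5.3a, FastQC 0.11.5 and DESeq2 1.28.1. For the annotation release and the strand setting, nothing is given in the sources used here, so overlapping genes have uncertain counts.

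Genotype was tested with edgeR 4.0.16 in R 4.3.3 (quasi-likelihood F-test, robust, TMM factors, default count filter) over 17652 genes, with Benjamini-Hochberg adjustment and 0.05 as the threshold. An SE is the absolute log2 fold change over the square root of its F value. Ratios used log2 CPM after adding 0.5 CPM, with two-sided exact permutation over libraries. CPM per kb used the median length of the principal transcripts of GENCODE M21. No 2 libraries of a genotype agreed within sampling noise (chi-square per degree of freedom 29.1 to 461 over genes with at least 20 counts in a pair). Intervals of counting error are narrow at this depth.

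Members and lists were chosen with earlier results of these data known. Named genes were the 10 members, up to 4 genes of smallest p per list, ratio partners, genes within 50000 bases of Plin3, Plin4 and Plin5, and the 5 genes most like Plin1. Of these, 2 genes are not reported here. Cidea, Hilpda, Aup1, Spg20, Dgat2, Thrsp, Lrat and Ucp1 were singled out after their values were seen. Lipe, Reln, Pdgfrb, Rgs5, Ttr, Gk, Dio2 and Cox8b were also named, though the rule above does not cover them. Alternatives were other scalings, filters and tests (DESeq2 1.42.0, limma 3.58.1), a term for sex, and each library left out in turn.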

Additional observations from a re-analysis of the deposited data

How the results depend on the processing

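Over 14 alternatives for each of the 10 genes, 132 of 140 fits kept direction and call, 8 lost the call and 0 reversed; Plin2, Plin3 and Plin5 held all 8, as given with those genes. Library totals as the scaling called 7475 genes higher and 2160 lower, against 4938 and 4415 with TMM, and 0 of the 10 genes lower. Leaving out 1 library gave 3602 to 5125 genes called higher and 2543 to 5032 lower, with 7 to 9 of the 10 genes called higher and 0 to 1 lower; the lowest count of lower genes, 2543, came without PARP2 KO replicate 1. Of 160 alternatives of the ratios, 6 reversed, all of ratios whose groups overlap. Leaving out 1 library, Plin4 to Plin1 ranged between -0.0276 (without WT replicate 3) and 0.388, Plin5 to Plin2 between -0.0115 (without PARP2 KO replicate 1) and 0.587, Plin1 to Adipoq between -0.210 and 0.0131 (without WT replicate 2), and Plin4 to Adipoq between -0.238 (without WT replicate 3; -0.0639 without PARP2 KO replicate 1) and 0.401. Adding 2 CPM in place of 0.5 CPM gave -0.210 for Plin5 to Plin2. The cause was not tested. With union exon lengths, Plin1 made 42.5% of perilipin transcripts in PARP2 KO and 19.3% in WT, Plin4 36.2% and 13.7%, Plin2 16.3% and 35.97%, and Plin3 4.37% and 30.1%. No paired analysis was possible because the labels give no replicate numbers that the genotypes share. At 17 to 160 counts, depth limits Plin5.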
